A study of Mus musculus with 12 samples.

Results

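The 10 genes described here encode the transcription factors that steer blood progenitors toward neutrophils and monocytes, with 1 pseudokinase that acts on them: Cebpa, Cebpb, Cebpd, Cebpe, Gfi1, Spi1, Irf8, Klf4, Runx1 and Trib2. They were taken by gene symbol from a table of 24421 entries, and all 10 had an entry. RNA came from bone marrow of C57BL/6 mice in 4 groups of 3 samples. The groups were injured aged mice (Aged-TBI), control aged mice (Aged-CON), injured young mice (Young-TBI) and control young mice (Young-CON), and the labels name no genotype or drug. The injury was a traumatic brain injury, and the injured mice gave marrow on day 3 after it. The labels give neither the ages, nor how the injury and the control procedure were done, nor whether the samples of a group are separate animals, so the p-values measure the spread between samples, which may be technical.

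In myelopoiesis, RUNX1 and PU.1 (the product of Spi1) open the myeloid programme in early progenitors, and C/EBP alpha is needed for the step to granulocyte and monocyte progenitors. GFI1 and C/EBP epsilon then drive neutrophil maturation, while IRF8 and KLF4 drive the monocyte branch, and C/EBP beta takes over from C/EBP alpha when infection or injury calls for fast granulocyte output. TRIB2 is a pseudokinase that brings C/EBP alpha to a ubiquitin ligase for degradation.

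Levels are given in FPKM, the deposited unit, which scales fragments to transcript length and library size. Log2 changes are on log2(FPKM + 1). A gene passed where limma's p, adjusted by Benjamini-Hochberg over 11767 genes, was under 0.05, and "rose" and "fell" are used of such genes alone. The tested genes reached 1 FPKM in 3 samples or more, and all 10 genes did. The 12 libraries held 12.3 to 15.9 M fragments, recovered from the steps of low FPKM values, and the 10 genes had 137 to 6456 fragments per library. Neutrophil, B cell and erythroid markers were all present in each group, with none of these lists' genes at 0 throughout a group. The haemoglobin genes looked up, Hba-a1, Hba-a2, Hbb-bs and Hbb-bt, nevertheless reached at most 0.25 FPKM. Young-CON 2 and Aged-CON 1 stood apart from their groups in the mean log2 level of 14 erythroid markers. Young-CON 2 was at 5.98, against 6.99 and 6.82 in the other Young-CON samples, and Aged-CON 1 at 7.17, against 6.29 and 6.25 in the other Aged-CON samples. The mean log2 level of 15 mature neutrophil markers was 8.29 in Aged-CON 1 and 8.84 and 8.85 in the other 2 Aged-CON samples.

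In level, averaged over the 12 samples, Spi1 was highest at 254 FPKM (samples from 214 to 310) and Trib2 lowest at 4.70 FPKM (2.39 to 9.86). Between them came Cebpe at 121, Cebpb at 101, Irf8 at 83.9, Cebpd at 64.7, Cebpa at 41.0, Klf4 at 25.3, Gfi1 at 18.3 and Runx1 at 13.6 FPKM. The sample ranges of neighbours in this order did not overlap between Spi1 and Cebpe, Cebpd and Cebpa, Cebpa and Klf4, or Runx1 and Trib2, and overlapped between the other neighbours. Trib2 varied most among samples, 4.12-fold between its highest and lowest sample, and Runx1 least, 1.27-fold. The other 8 genes lay between 1.45-fold and 1.62-fold.

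**Figure D1:**
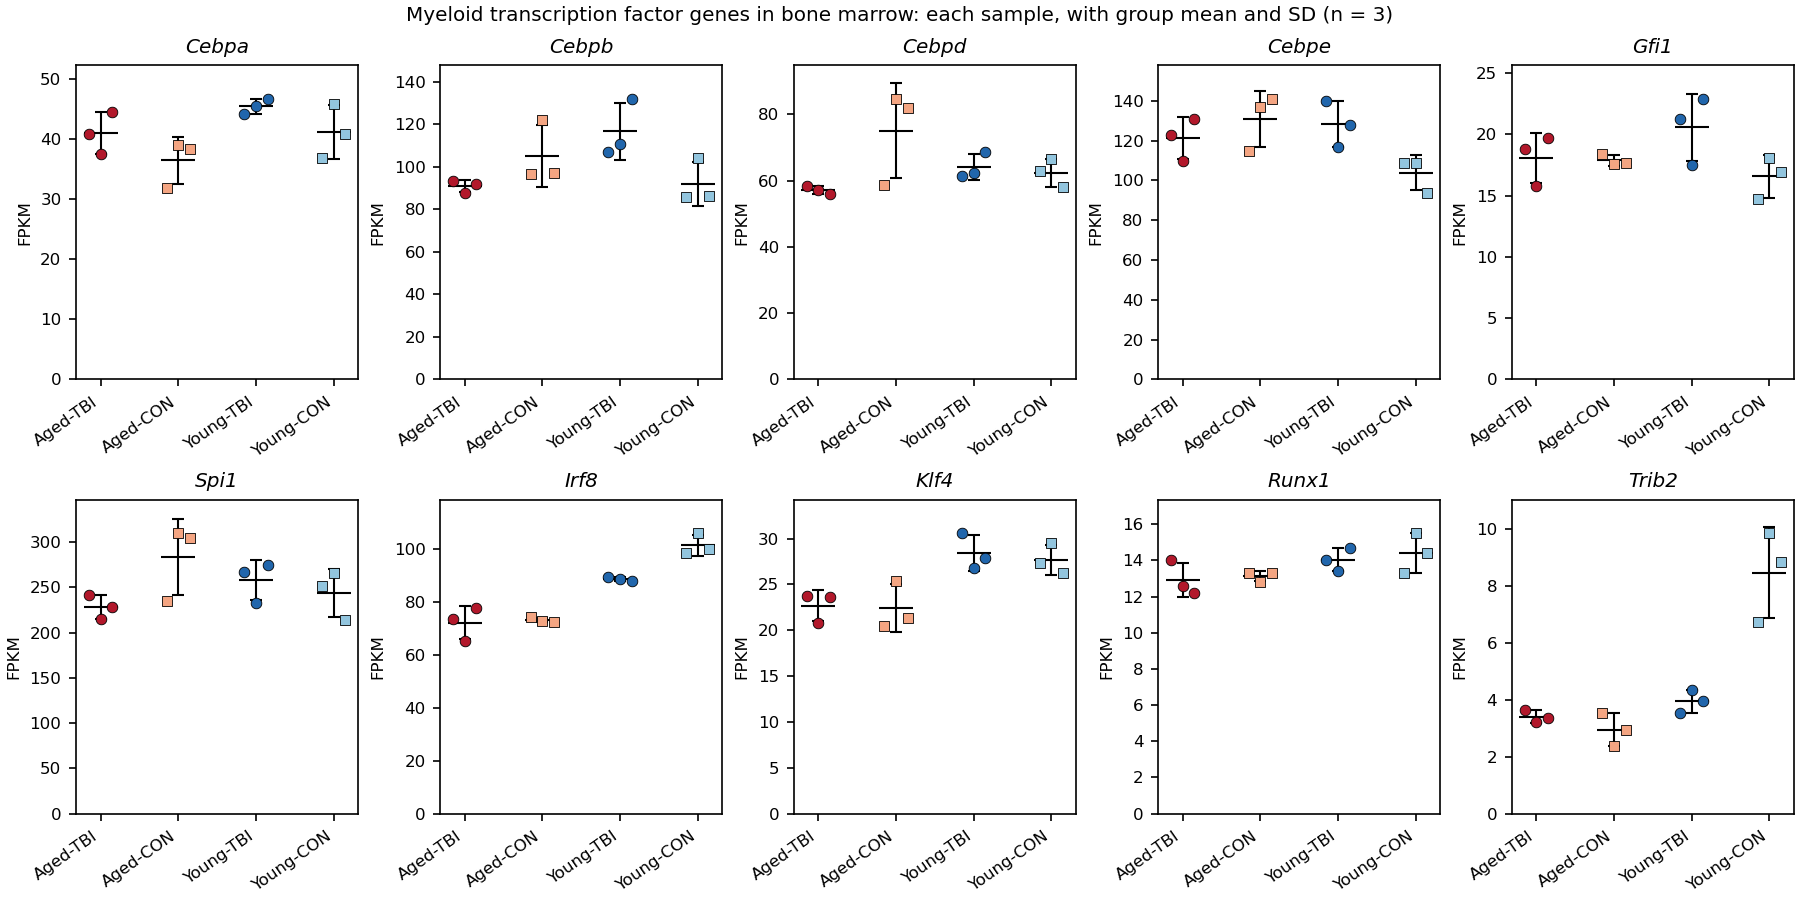
FPKM of each gene in each sample (points), with the group mean and SD as bars (n = 3 each), in Aged-TBI, Aged-CON, Young-TBI and Young-CON marrow. Trib2 lies between 6.72 and 9.86 FPKM in Young-CON and between 2.39 and 4.34 FPKM in the other groups, and all Irf8 and Klf4 samples of aged mice lie below those of young mice.

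The genes that passed in at least 1 of the 5 comparisons were Trib2, Irf8 and Klf4, each of them with a fall. With injury in young mice 1 of the 10 fell and none rose, where 5.15% of all genes passed. None passed with injury in aged mice in limma, where 0.323% of all genes did. Before adjustment, 2 were lower at p under 0.05, where 23.9% of all genes were past that value in either direction, and voom on the recovered fragments called none. With age, 2 fell without injury (4.98% of all genes passed) and 2 after injury (9.90%). In the last comparison all 10 had negative log2 changes (median -0.17, against -0.05 over all genes). There all 14 erythroid markers had positive changes (median 0.88), and 3 of them passed. With the erythroid marker level as a covariate, Cebpa, Cebpd, Cebpe and Spi1 had positive changes (0.085, 0.14, 0.061 and 0.097), and none of the 10 passed. That level did not overlap between Aged-TBI and Young-TBI, so the fit cannot fully tell level and group apart. For the interaction none passed in limma (0.195% of all genes), 1 had a higher and 4 a lower value at an unadjusted p under 0.05 (20.0% of all genes), and voom called 1, Trib2. These counts depend on Aged-CON 1. Without it 2 genes passed with injury in aged mice (Cebpd and Spi1), 5 with age in controls (Cebpd, Cebpe and Spi1 besides Irf8 and Trib2), 3 with age after injury (Cebpb besides Irf8 and Klf4) and 5 for the interaction (Cebpb, Cebpd, Cebpe, Spi1 and Trib2). Of all genes, 3266 then passed with injury in aged mice and 2104 for the interaction. The Aged-TBI samples had erythroid marker levels of 7.33 to 7.44, against 6.29 and 6.25 in the Aged-CON samples that then remain. Sample values of the compared groups did not overlap for 4 of the 10 genes with injury in young mice (27.9% of all genes), 2 with injury in aged mice (22.2%), 4 with age without injury (20.4%) and 4 with age after injury (40.0%).

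Upstream sequences of Irf8 and Trib2 are shown because these genes had the smallest adjusted p-values, and those of Gfi1 and Runx1 because they held the only matches to the motifs searched. Each comes from the 250 bases before the gene's start in RefSeq on GRCm38.p6, without bases that GENCODE places in an exon of the gene, read 5′ to 3′ on the gene's strand. Capitals mark a motif match. The Gfi1 and Runx1 stretches, and so both matches, lie within the span that GENCODE gives the gene, between its exons. Irf8 lies on the plus strand of chromosome 8 (chr8:120736108-120736357), Trib2 on the minus strand of chromosome 12 (chr12:15816923-15817035), Gfi1 on the minus strand of chromosome 5 (chr5:107725806-107725954), and this start of Runx1 on the minus strand of chromosome 16 (chr16:92697330-92697579).
Irf8: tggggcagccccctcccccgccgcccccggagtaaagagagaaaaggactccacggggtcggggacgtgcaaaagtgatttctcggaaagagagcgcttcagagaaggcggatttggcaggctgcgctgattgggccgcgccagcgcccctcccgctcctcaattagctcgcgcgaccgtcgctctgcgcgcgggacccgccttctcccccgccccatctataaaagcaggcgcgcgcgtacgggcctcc
Trib2: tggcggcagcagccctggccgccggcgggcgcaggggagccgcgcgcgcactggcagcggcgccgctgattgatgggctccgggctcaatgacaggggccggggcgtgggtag
Gfi1: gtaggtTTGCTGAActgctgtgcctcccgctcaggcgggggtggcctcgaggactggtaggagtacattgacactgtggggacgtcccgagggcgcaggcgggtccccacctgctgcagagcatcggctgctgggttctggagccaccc
Runx1: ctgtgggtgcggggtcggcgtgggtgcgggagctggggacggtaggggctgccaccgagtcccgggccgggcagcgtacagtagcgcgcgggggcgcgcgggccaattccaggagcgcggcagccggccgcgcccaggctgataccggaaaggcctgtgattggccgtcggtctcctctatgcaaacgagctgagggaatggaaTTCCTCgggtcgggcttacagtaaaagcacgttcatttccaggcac
The motifs were TTGCNNAA for C/EBP, GAGGAA for PU.1, TGTGGT for RUNX and GATAAG for GATA factors, on both strands, none overlapping another in these windows. RefSeq windows were found for 7 of the 10 genes (Cebpa, Cebpb, Gfi1, Irf8, Klf4, Runx1 and Trib2), 10 windows in all because Gfi1, Irf8 and Runx1 each have 2 starts. The C/EBP motif was in 1 of the 10 windows, that of Gfi1, 143 to 136 bases before the start, and in 9.6% of 27025 windows taken 1 per symbol. The PU.1 motif was in 1 of the 10, that of Runx1 on the opposite strand, against 23.1% of all windows. The RUNX and GATA motifs were in none, against 14.2% and 6.6% of all windows.

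Among the regulators of C/EBP alpha, Trib2 (chromosome 12, 15791727 to 15816922, GRCm38) was high in young controls alone. Its level was 3.66, 3.22 and 3.35 FPKM in the Aged-TBI samples, 3.53, 2.39 and 2.95 in Aged-CON, 3.55, 4.34 and 3.96 in Young-TBI and 6.72, 9.86 and 8.84 in Young-CON. No sample of another group reached the lowest Young-CON sample, while the other 3 groups lay close together, with Aged-TBI overlapping both Aged-CON and Young-TBI.

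In young mice Trib2 fell with injury, to 3.95 ± 0.395 FPKM in Young-TBI, against 8.47 ± 1.60 FPKM in Young-CON (SD, n = 3 each). The log2 change was -0.92 (SE 0.14, adjusted p = 0.0051 in limma), and 3.15% of all genes fell in this comparison. Without injury Trib2 was lower in aged mice as well, at 2.96 ± 0.568 FPKM in Aged-CON, with a log2 change of -1.25 against Young-CON (SE 0.14, adjusted p = 0.000172), where 4.19% of all genes fell. In aged mice the change with injury was 0.16 (95% interval -0.13 to 0.46, adjusted p = 0.484), and after injury the change with age was -0.17 (-0.46 to 0.13, adjusted p = 0.459). The aged injury effect lay 1.09 above the young one (interaction, SE 0.19), which missed the threshold at adjusted p = 0.0537. It passed in 5 of 22 alternative settings, among them without Aged-CON 1 (1.19, adjusted p = 0.00969), without Young-TBI 2 (1.15, 0.0406), on the recovered fragments with voom (1.28, 0.0447) and after quantile normalization (1.06, 0.0433). In the other 17 it did not pass. Over the 22 settings the interaction ran from 0.60 to 1.28, with adjusted p up to 0.999. Both falls are set against the same 3 high Young-CON samples.

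The B cell marker list moved with Trib2. Of its 15 genes, 14 fell with injury in young mice (median log2 change -1.21, against -0.02 over all genes) and 12 were lower in Aged-CON than in Young-CON (median -1.83, against -0.05 over all genes). Its summed level ran from 155.5 to 170 FPKM in Aged-TBI, 176.5 to 244 in Aged-CON, 255.7 to 373.5 in Young-TBI and 600.1 to 819.8 in Young-CON. Of the markers, Vpreb2 was listed at 0 in Aged-TBI 1, and no other value was 0. In bulk marrow, fewer cells of a type and less RNA per cell cannot be told apart. With the mean log2 level of these 15 markers as a covariate, the Trib2 changes were -0.22 with injury in young mice (adjusted p = 0.926) and -0.36 with age in controls (adjusted p = 0.994). That covariate hardly overlaps between the groups, so it and the groups cannot be told apart in such a fit: no gene passed in either comparison, against 606 and 586 without it. Of 15 T and natural killer cell markers, 9 were lower in Young-TBI than in Young-CON (median log2 change -0.66). Between Aged-CON and Young-CON their direction was mixed (median -0.20), with 4 of 15 lower and none higher. There 5 of the 15 had positive changes, 3 of them at an unadjusted p under 0.05 in limma.

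**Figure D2:**
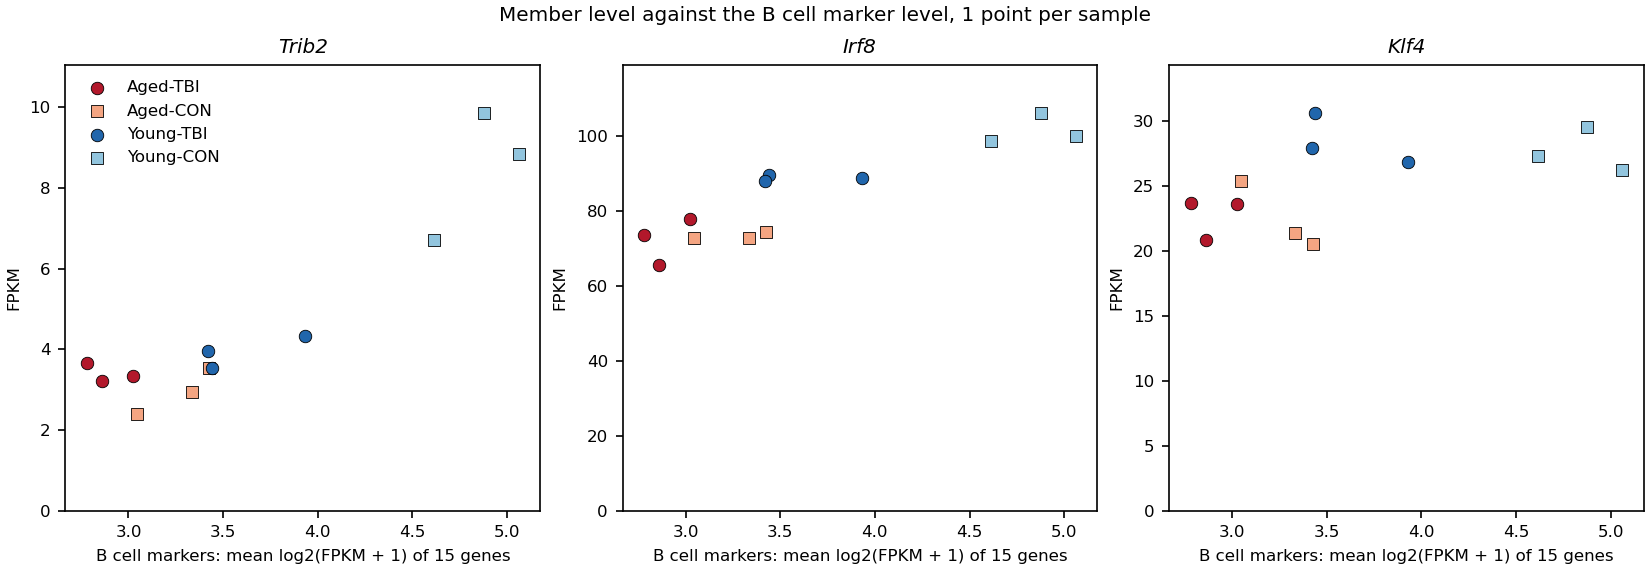
FPKM of Trib2, Irf8 and Klf4 (vertical axes) against the mean log2(FPKM + 1) of 15 B cell markers (horizontal axes), 1 point per sample, coloured by group. Young-CON samples have the highest B cell marker level (4.62 to 5.06) and the highest Trib2, while Klf4 in Young-TBI is as high as in Young-CON at a lower B cell marker level (3.42 to 3.93).

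Trib1, a second Tribbles gene whose product also targets C/EBP alpha, had 6.98 ± 0.484 FPKM in Aged-TBI, 8.81 ± 1.34 in Aged-CON, 6.04 ± 0.648 in Young-TBI and 7.99 ± 0.439 in Young-CON. It passed in no comparison, with the smallest adjusted p for young injury (log2 change -0.36, adjusted p = 0.0811). Of 11 tested regulators of C/EBP and Tribbles proteins, none passed for injury at either age in limma or voom. At each age 3 had an unadjusted p under 0.05, where 23.9% of all genes did in aged mice. With age 1 of the 11 passed without injury and 1 after injury, where 4.98% and 9.90% of all genes passed. They were the histone methyltransferase gene Ezh2, lower in Aged-CON than in Young-CON (-0.48, adjusted p = 0.0136), and the RNA-binding protein gene Celf2, lower in Aged-TBI than in Young-TBI (-0.29, adjusted p = 0.0464).

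The genes whose profile was most like that of Trib2, out of 8480 with a mean of at least 5 FPKM, were B3gnt5, Cxxc5 and Cnn3. Likeness was the root mean square difference of log2 values centred on each gene's mean over the 12 samples, which was 0.124, 0.17 and 0.175. B3gnt5, a glycosyltransferase gene, had group means of 4.32, 4.75, 5.85 and 11.2 FPKM in Aged-TBI, Aged-CON, Young-TBI and Young-CON.

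Of the monocyte factors, Irf8 (chromosome 8, 120736358 to 120756694), which favours monocyte and dendritic cell fate over neutrophil fate and is also expressed in B cells, was lower in aged marrow with and without injury. Samples measured 73.5, 65.4 and 77.8 FPKM in Aged-TBI, 74.2, 72.7 and 72.6 in Aged-CON, 89.5, 88.6 and 88.0 in Young-TBI and 98.5, 106 and 100 in Young-CON. The 6 aged samples all lay below the 6 young ones, Young-TBI lay between Young-CON and the aged groups without overlap, and the 2 aged groups overlapped.

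Between controls the Irf8 means were 73.2 ± 0.867 FPKM in Aged-CON and 102 ± 3.73 FPKM in Young-CON (mean ± SD of 3 samples), which differed by -0.47 on the log2 scale (SE 0.07, limma adjusted p = 0.00125). Between injured groups they were 72.2 ± 6.33 FPKM in Aged-TBI and 88.7 ± 0.757 FPKM in Young-TBI (log2 change -0.30, SE 0.07, adjusted p = 0.0189), a comparison in which 6.93% of all genes fell. That second call was lost without Young-TBI 1 (adjusted p = 0.06), Young-TBI 3 (0.0697), Aged-TBI 1 (0.0538) or Aged-TBI 2 (0.0642), and with the erythroid or the B cell marker level as a covariate (0.115 and 0.266). The log2 change was -0.27 with the erythroid covariate and -0.25 with the B cell covariate. Neither marker level overlapped between Aged-TBI and Young-TBI, so these fits cannot fully tell level and group apart. With injury, Irf8 had a log2 change of -0.19 in young mice (SE 0.07, adjusted p = 0.125), where the groups did not overlap, as for 27.9% of all genes, and of -0.02 in aged mice (95% interval -0.17 to 0.12). Dendritic cell markers summed to 148.6 to 165.1 FPKM in Aged-TBI, 166.5 to 207.1 in Aged-CON, 201.3 to 224.2 in Young-TBI and 299.5 to 309.3 in Young-CON, and 2 of 9 were lower in each of the 2 age comparisons. These sums had the order of the Irf8 means, with overlap between Aged-CON and Young-TBI. The mean log2 level of these markers was 3.18 in Aged-TBI, 3.18 in Aged-CON, 3.27 in Young-TBI and 3.58 in Young-CON. Their median log2 change with age was -0.41 in controls and 0.04 after injury, where 5 of the 9 had positive changes. The part of dendritic cells in the Irf8 result was not tested. The B cell marker sums given above also had the order of the Irf8 means. Their part in the Irf8 result was not tested beyond the covariate fit, in which Irf8 had a change of -0.35 between controls (adjusted p = 0.994). The profiles most like that of Irf8 were those of BC035044, Tmem229b and the transcription factor gene Mef2d (root mean square difference 0.066, 0.067 and 0.072 log2 units).

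Klf4 (chromosome 4, 55527143 to 55532466), a zinc finger factor that acts downstream of IRF8 in monocytes, was lower in aged than in young mice after injury. Its values were 23.7, 20.8 and 23.6 FPKM in Aged-TBI, 20.5, 25.4 and 21.4 in Aged-CON, 30.6, 26.8 and 27.9 in Young-TBI and 27.3, 29.5 and 26.2 in Young-CON. Every aged sample was below every young one, and the injured and control samples of an age overlapped. Klf4 fell with age among injured mice, with 22.7 ± 1.66 FPKM in Aged-TBI and 28.5 ± 1.94 FPKM in Young-TBI (mean ± SD of 3 samples), which differed by -0.31 on the log2 scale (SE 0.09, limma adjusted p = 0.0491). This call lay at the threshold and was lost in 16 of 23 alternative settings, among them the replicate block (adjusted p = 0.0745), rescaling without dominant genes (0.0659), and leaving out any 1 of the 6 samples compared (0.0651 to 0.159). Between controls the change was -0.29 (adjusted p = 0.0998), and it passed without Aged-CON 2 (-0.38, adjusted p = 0.0402) and with the erythroid covariate (-0.30, adjusted p = 0.0449). With injury it was 0.04 in young mice (95% interval -0.16 to 0.24) and 0.02 in aged mice (-0.18 to 0.22). The profiles most like it were those of Tmem109, Stard3nl and Rest, which encodes a transcriptional repressor (0.075, 0.09 and 0.092 log2 units).

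Monocyte and macrophage genes taken as targets of IRF8 or KLF4 were followed as a list of 20. Between Aged-TBI and Young-TBI, 8 were lower and 1 higher (median log2 change -0.28), among them Ly6c2, the marker of inflammatory monocytes (-0.62, adjusted p = 0.0077), and F13a1, a coagulation factor gene (-0.73, adjusted p = 0.00579). Between Aged-CON and Young-CON, where Irf8 had its larger fall, Cd14 was higher (0.54, adjusted p = 0.0239) and no other passed (median 0.03). With injury in young mice, 4 rose and 3 fell (median 0.16).

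None of the 4 C/EBP genes passed in any comparison. Cebpa (chromosome 7, 35119293 to 35121928) was at 40.9, 37.5 and 44.5 FPKM in Aged-TBI, 31.9, 39.1 and 38.4 in Aged-CON, 44.2, 45.6 and 46.7 in Young-TBI and 36.8, 45.8 and 40.8 in Young-CON. Each injured group overlapped its control group. Its log2 changes with injury were 0.17 in aged mice (95% interval -0.05 to 0.38) and 0.15 in young mice (-0.06 to 0.36).

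Cebpe (chromosome 14, 54710360 to 54712174), needed for secondary granules of neutrophils, had its lowest mean in young controls. Its level was 123, 110 and 131 FPKM in Aged-TBI, 115, 137 and 141 in Aged-CON, 140, 117 and 128 in Young-TBI and 109, 109 and 93.6 in Young-CON. Young-CON did not overlap Young-TBI (log2 change 0.31, SE 0.10, adjusted p = 0.118) or Aged-CON (0.33, SE 0.10, adjusted p = 0.0999), yet neither change passed. The second did without Aged-CON 1 (0.42, adjusted p = 0.0186) and with the erythroid marker level as a covariate (0.33, adjusted p = 0.046).

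Cebpb (chromosome 2, 167688915 to 167690418), the factor of emergency granulopoiesis, had its highest mean in injured young mice. Samples measured 93.4, 87.9 and 91.8 FPKM in Aged-TBI, 96.6, 122 and 97.2 in Aged-CON, 107, 111 and 132 in Young-TBI and 85.7, 104 and 86.5 in Young-CON. Young-TBI lay above Young-CON and Aged-TBI below Aged-CON, both without overlap, and neither change passed: 0.34 in young mice (SE 0.11, adjusted p = 0.107) and -0.20 in aged mice (SE 0.11, adjusted p = 0.291). The change in young mice passed with the erythroid marker level as a covariate (0.31, adjusted p = 0.0293) and without both Young-CON 2 and Aged-CON 1 (0.43, adjusted p = 0.0372). The difference between them was -0.54 (SE 0.16, adjusted p = 0.12), and it passed without Aged-CON 1 (-0.60, adjusted p = 0.0298). Among injured mice the change with age was -0.35 (SE 0.11, adjusted p = 0.0658), which passed in a fit of those 2 groups alone (adjusted p = 0.0196) and without Young-CON 2 (0.0494), Aged-CON 1 (0.0437) or Aged-CON 2 (0.0405). The exons of Cebpb overlap those of Tmem189 on the opposite strand (mean 34.8 FPKM), and since the strand setting of the counting is not given, reads of the pair may have been counted together. The same holds for Cebpd and Spidr (mean 13.6 FPKM). Exons of Cebpa, Gfi1 and Runx1 overlap those of the opposite-strand genes Gm45091, A430072P03Rik and Gm26626. These have no FPKM entry, and their reads may likewise have been counted with the member.

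Cebpd (chromosome 16, 15887286 to 15891031), an acute-phase member of the family, was at 58.3, 57.3 and 55.9 FPKM in Aged-TBI, 58.6, 84.7 and 81.9 in Aged-CON, 61.4, 62.2 and 68.6 in Young-TBI and 62.8, 66.5 and 58.0 in Young-CON. Aged-CON 2 and 3 stood above all other samples, and Aged-CON 1 lay next to Aged-TBI. The change with injury in aged mice was -0.37 (SE 0.12, adjusted p = 0.124), and -0.54 without Aged-CON 1 (adjusted p = 0.00338).

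Spi1 (chromosome 2, 91082390 to 91115756) had the same split in aged controls. Its values were 242, 215 and 228 FPKM in Aged-TBI, 235, 310 and 305 in Aged-CON, 267, 233 and 275 in Young-TBI and 252, 266 and 214 in Young-CON. Its change with injury was -0.30 in aged mice (SE 0.12, adjusted p = 0.16; -0.43 without Aged-CON 1, adjusted p = 0.0101) and 0.09 in young mice (SE 0.12, adjusted p = 0.749). Aged-CON 2 and 3 were also the samples with low erythroid and high mature neutrophil marker levels among the Aged-CON samples, as given above. The part of these levels in the Cebpd and Spi1 values was not tested beyond the erythroid covariate fit, in which the changes were -0.10 (adjusted p = 0.957) and -0.05 (adjusted p = 0.984). The erythroid level ran from 7.33 to 7.44 in Aged-TBI and from 6.25 to 7.17 in Aged-CON, without overlap. That fit therefore cannot fully tell the erythroid level and injury apart.

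Gfi1 (chromosome 5, 107716657 to 107726036), a repressor that holds progenitors on the neutrophil path, was at 18.8, 15.8 and 19.7 FPKM in Aged-TBI, 18.4, 17.6 and 17.7 in Aged-CON, 21.3, 17.5 and 22.9 in Young-TBI and 14.7, 18.1 and 16.9 in Young-CON. Young-TBI 1 and 3 were above all other samples, and Young-TBI 2 lay within the Young-CON range. The log2 change with injury in young mice was 0.29 (SE 0.11, adjusted p = 0.163) and in aged mice 0.01 (SE 0.11, adjusted p = 0.973). Runx1 (chromosome 16, 92601466 to 92826149) lay between 12.2 and 15.5 FPKM in all 12 samples, with log2 changes from -0.12 to 0.01 over the 5 comparisons and no call.

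**Figure D3:**
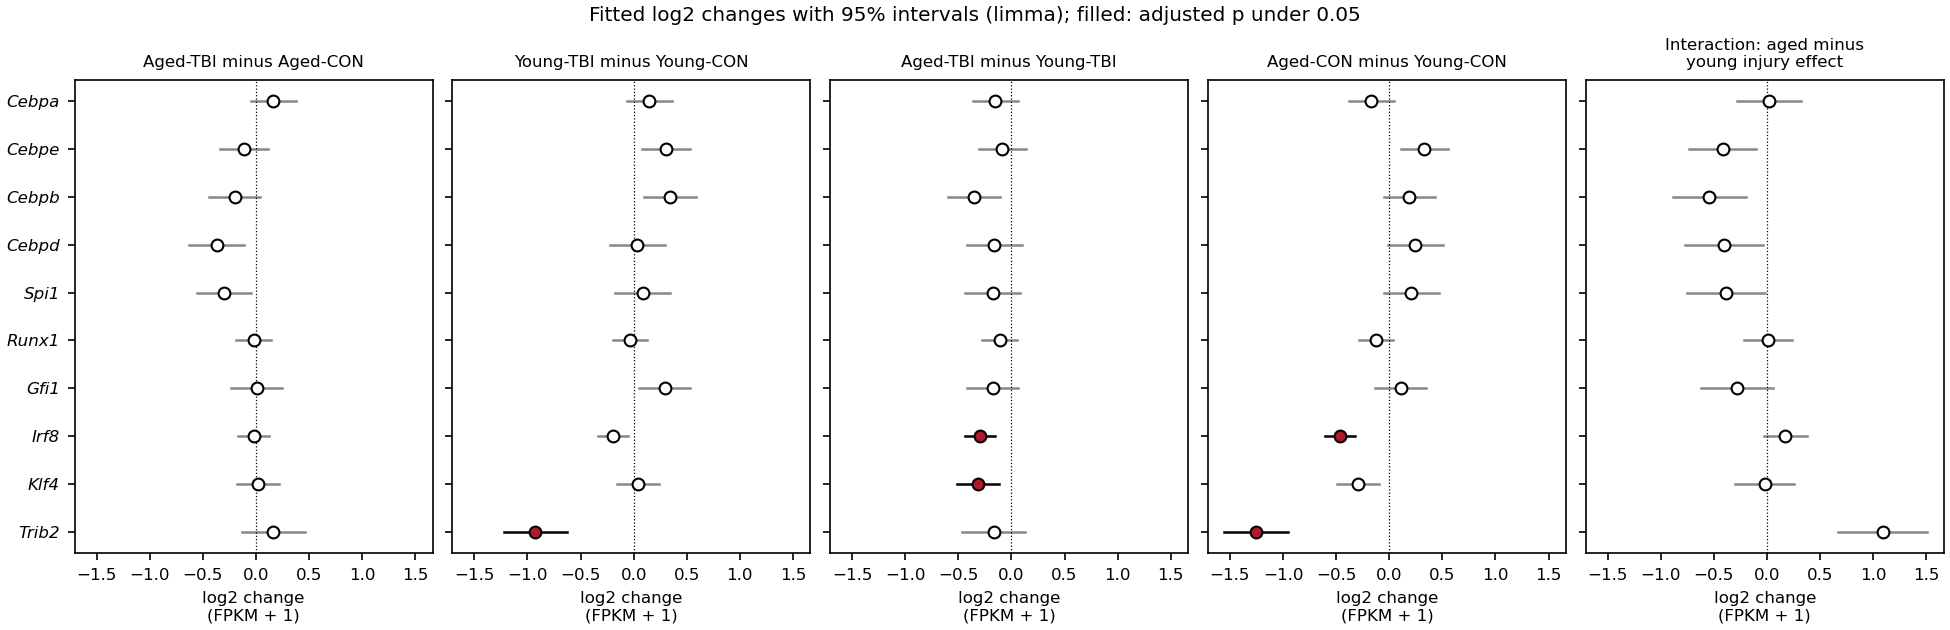
Log2 change on the log2(FPKM + 1) scale with its 95% interval for each gene in the 5 comparisons, filled where the adjusted p is under 0.05 (limma). Filled points are Trib2 with injury in young mice and with age in controls, Irf8 with age in both, and Klf4 with age after injury, all to the left of 0.

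Ratios between pairs of these genes were taken per sample as log2 of FPKM over FPKM, as a description with no test. Gfi1 over Irf8 stood at -1.97, -2.05 and -1.98 in the Aged-TBI samples, -2.01, -2.05 and -2.03 in Aged-CON, -2.07, -2.34 and -1.94 in Young-TBI and -2.75, -2.55 and -2.57 in Young-CON. Young-CON lay below all 9 other samples. Irf8 over Cebpa stood at 0.85, 0.80 and 0.81 in the Aged-TBI samples, 1.22, 0.89 and 0.92 in Aged-CON, 1.02, 0.96 and 0.91 in Young-TBI and 1.42, 1.21 and 1.30 in Young-CON. Injured samples lay below the control samples of their age without overlap at both ages, with Aged-CON 1 far above the other Aged-CON samples.

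Cebpb over Cebpa averaged 1.16 ± 0.10 in Aged-TBI, 1.53 ± 0.16 in Aged-CON, 1.36 ± 0.13 in Young-TBI and 1.16 ± 0.07 in Young-CON (SD, n = 3 each). Injured samples lay below controls in aged mice and above controls in young mice, without overlap in either. Cebpe over Cebpa averaged 1.56 ± 0.02 in Aged-TBI, 1.84 ± 0.04 in Aged-CON, 1.49 ± 0.16 in Young-TBI and 1.34 ± 0.20 in Young-CON, with Aged-CON above all other samples. Klf4 over Irf8 averaged -1.67 ± 0.05 in Aged-TBI, -1.71 ± 0.17 in Aged-CON, -1.64 ± 0.09 in Young-TBI and -1.88 ± 0.05 in Young-CON.

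**Figure D4:**
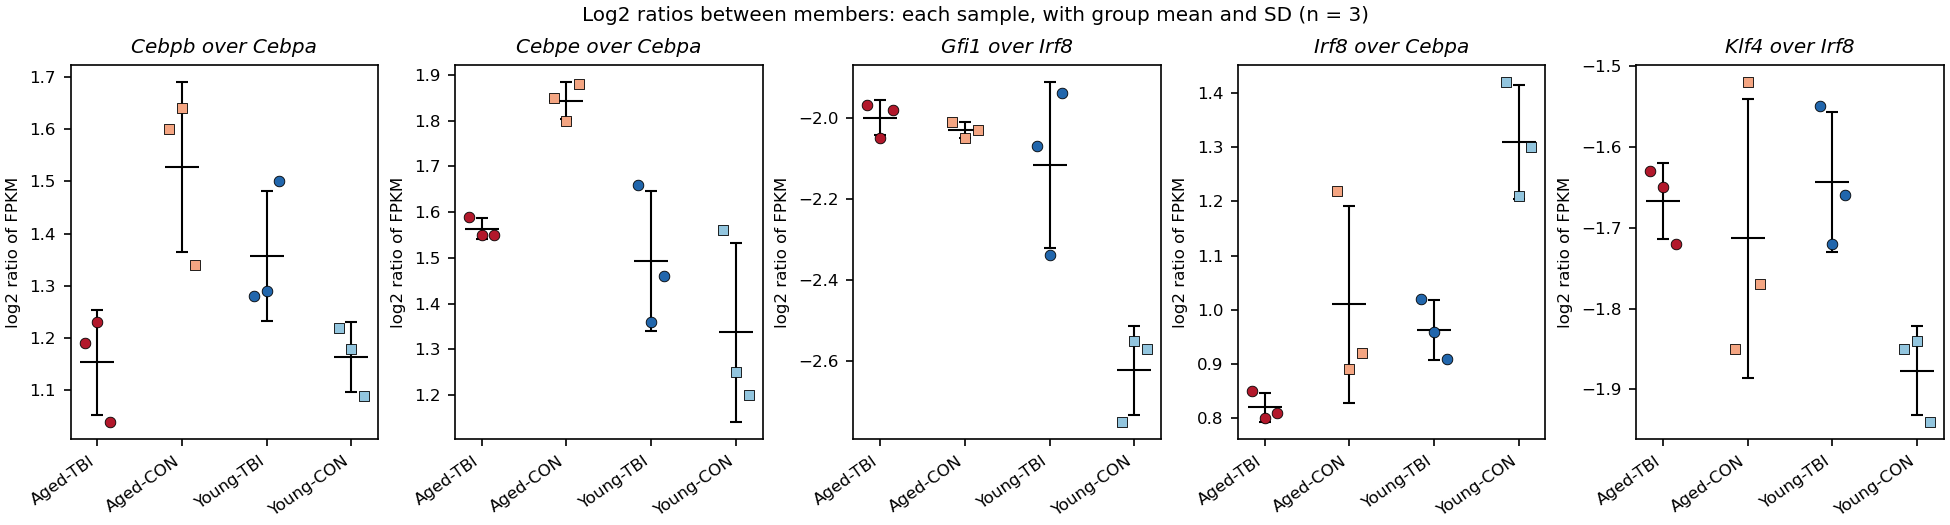
Log2 ratio of FPKM between pairs of the genes (vertical axes, which do not start at 0) in each sample (points), with the group mean and SD as bars (n = 3 each). Gfi1 over Irf8 is lowest in the Young-CON samples (-2.75 to -2.55), and Cebpe over Cebpa is highest in the Aged-CON samples (1.80 to 1.88).

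Lists of genes taken as targets of these factors were set beside them, and whether each gene answers to each factor was not tested. The primary granule and progenitor list holds genes taken as targets of C/EBP alpha, PU.1 or RUNX1. Of its 10 tested genes, 8 rose with injury in young mice (median log2 change 0.84), while Cebpa, Spi1 and Runx1 did not pass (0.15, 0.09 and -0.03). Ctsg and Prtn3, which encode the granule proteases cathepsin G and proteinase 3, were among those with the smallest adjusted p (1.16 and 1.13, adjusted p = 0.00174 each). In aged mice none of the 10 passed with injury in limma or voom. At an unadjusted p under 0.05, 2 were lower, where 23.9% of all genes were past that value in either direction. The injury effects differed for 7 of the 10, all lower in aged mice (interaction, limma), though with the replicate block 0 of all genes passed for the interaction. The aged controls did not start from the level of the young ones: 6 of the 10 were higher in Aged-CON than in Young-CON (median 0.48). After injury 7 of the 10 were lower in Aged-TBI than in Young-TBI (median -0.44). Of 15 tested secondary and tertiary granule genes, taken as targets of C/EBP epsilon, none passed with injury at either age in limma or voom (median -0.22 in aged and 0.20 in young mice). At an unadjusted p under 0.05, 2 were lower in injured aged mice, where 23.9% of all genes were past that value in either direction. In injured young mice 3 were higher and 1 lower. In this list Olfm4 alone was higher with age (1.41 in controls, adjusted p = 3.7e-05, and 1.13 after injury, adjusted p = 0.000508). Ltf and Camp, the classical targets of C/EBP epsilon, had changes of 0.20 and 0.16 with injury in young mice (adjusted p = 0.446 and 0.533).

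GFI1 is a repressor, and of 11 tested genes taken as repressed by it, none passed with injury at either age in limma or voom. In limma 2 were past an unadjusted p under 0.05 in aged mice, where 23.9% of all genes were, and 3 in young mice. The list holds Gfi1 and Irf8 themselves. Both were among those 3 in young mice, Gfi1 higher (unadjusted p = 0.0217 in limma) and Irf8 lower (0.013). With age, Irf8 itself was the 1 that passed without injury, where 4.98% of all genes passed. After injury Irf8 and Cdkn1a, a cell cycle inhibitor gene, were lower (Cdkn1a -0.60, adjusted p = 0.0077), where 9.90% of all genes passed.

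Of 46 other tested transcription factors of myelopoiesis, 6 fell with injury in young mice and none rose (5.15% of all genes passed), and 2 fell in aged mice (0.323%). With age, 7 were lower and 1 higher without injury (4.98% of all genes passed), and 4 lower and 4 higher after injury (9.90%). Irf4, a relative of Irf8 that acts in B and plasma cells, was lower in Aged-CON than in Young-CON (-1.56, adjusted p = 0.000291) and fell with injury in young mice (-0.86, adjusted p = 0.0204). Myb, a factor of immature progenitors and B cell precursors, was lower with age in both states (-0.53 in controls, adjusted p = 0.002, and -0.47 after injury, adjusted p = 0.00595). Gata2, which progenitors, basophils and mast cells use, fell with injury in young mice (-0.56, adjusted p = 0.004), as did 6 of 8 basophil and mast cell markers, a list that holds Gata2. Junb, an AP-1 gene, fell with injury in aged mice (-1.13, adjusted p = 0.00249) and was higher in Aged-CON than in Young-CON (1.16, adjusted p = 0.000159). The partner of RUNX1, Cbfb, had 46.4 ± 3.6 FPKM in Aged-TBI, 52.0 ± 3.29 in Aged-CON, 57.2 ± 4.14 in Young-TBI and 58.6 ± 4.83 in Young-CON, with no call. Of 16 growth factor receptor and signalling genes upstream of these factors, none passed with injury at either age in limma. At an unadjusted p under 0.05, 6 were lower in aged mice, where 23.9% of all genes were past that value in either direction. In young mice 2 were higher. Voom called 1 lower in aged and 1 higher in young mice. With age after injury 2 of the 16 passed in limma, where 9.90% of all genes did. They were Il6st and Il6ra, chains of the interleukin-6 receptor, both lower in Aged-TBI than in Young-TBI (-0.40 and -0.37, adjusted p = 0.0321 and 0.049).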

How the data were processed

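RNA was isolated with TRIzol and sequenced as SMARTER mRNA libraries, as the labels' protocols state. The authors deposited FPKM per gene symbol for all 12 samples, and 0 columns were left unused. GRCm38 (mm10) and R 4.3.3 appear in the submitters' processing notes. Aligner, counting tool, annotation and strand setting: not given in the sources used here. FPKM is relative, so a rise of abundant genes lowers the others.

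Values were taken as log2(FPKM + 1) without further scaling, kept at 1 FPKM or more in at least 3 samples. The model was limma 3.58.1, run in R 4.3.3 (1 mean per group, 12 samples, variance trend, two-sided). A log2 change on this scale understates that of low genes such as Trib2. Fits were tested on simulated data.

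Low FPKM values are whole multiples of 1 fragment, and 11764 of 11767 tested genes, all 10 described here among them, gave whole fragments within 0.05. The other 3 gave no whole fragments at the depths that the other genes share, and the cause was not tested. They stayed among the 11767 genes of the limma fits, the adjustment of p and the all-gene counts, and were left out of voom. The 12 pairs of samples within groups differed by more than counting error (chi-square 4.49 to 48.3 times its degrees of freedom), so each counted as 1 library.

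The genes and the 17 other lists (5 of 251 symbols had no entry) were chosen with earlier results of these data known. All 10 genes were described. From other lists at most 4 called genes with the smallest adjusted p were named, with Trib1, Ltf, Camp, Ly6c2 and Myb named in any case. Cd14 and Cbfb were chosen after their values were seen. Positions are from GENCODE M21 (GRCm38), and all motif and promoter sequences from RefSeq (GRCm38.p6).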

Additional observations from a re-analysis of the deposited data

How the results depend on the processing

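Of 1140 recomputed member values, 1024 kept direction and side of the threshold, 25 lost a call, 33 gained one and 58 changed sign, and 24 of the 50 values never changed sign. With 3 samples a group, changes within about 0.3 log2 units mostly did not pass. Settings chosen after seeing the data were the B cell covariate and leaving out both Young-CON 2 and Aged-CON 1. The cause of each difference below was not tested unless stated.

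Leaving out 1 sample in turn, the number of the 10 genes called ran from 1 to 1 for injury in young mice, 0 to 2 for injury in aged mice, 2 to 5 for age in controls, 0 to 3 for age among injured mice and 0 to 5 for the interaction. The number of all genes called ran from 160 to 970, 11 to 3266, 280 to 1675, 314 to 2129 and 0 to 2104, in the same order. For age after injury, 1 of the 10 genes was called with no filter on low values, after quantile normalization, rescaled without the 50 highest genes, with no variance trend and with the replicate block, and 0 with the erythroid or the B cell covariate. For age without injury 4 were called with the erythroid covariate, 0 with the B cell covariate and 5 without both libraries; for injury in young mice 2, 0 and 2. Without both libraries 2 were called for injury in aged mice and 5 for the interaction, where quantile normalization and voom each called 1.

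Of all genes, the main counts were 606, 38, 586, 1165 and 23 for injury in young mice, the same in aged mice, age in controls, age among injured mice and the interaction. A fit of the 2 groups alone called 390, 11, 284 and 2261 for the first 4. The erythroid covariate gave 1310, 10, 976, 130 and 2, and the B cell covariate 0, 59, 0, 124 and 0. In erythroid level Aged-TBI overlapped neither Aged-CON nor Young-TBI, so that fit cannot fully tell level and group apart there. Without both libraries the counts were 3527 for aged injury, 2730 for age without injury, 2571 for age after injury and 3043 for the interaction. Aged injury gave 17 with no filter and 21 with no variance trend. The interaction gave 2 with no filter, 5 rescaled, 6 with no variance trend, 44 with voom and 0 with the replicate block.

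The replicate numbers did not pair the samples: deviations of same-numbered samples correlated from -0.216 to 0.29 across genes (18 pairs), and the highest correlation in another group was with the own number in 11 of 36 cases. The replicate block called 472, 38, 518, 1085 and 0 genes. Of the calls of the 10 genes it removed that of Klf4 for age after injury (adjusted p = 0.0745).

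Sign changes concerned values that did not pass in either fit. With the B cell covariate the values were Cebpd -0.42, Cebpe -0.12, Spi1 -0.56 and Klf4 -0.31 for young injury, Gfi1 -0.026, Irf8 0.0048 and Klf4 -0.088 for aged injury, Cebpb -0.23, Cebpd -0.33, Cebpe -0.21, Gfi1 -0.033 and Spi1 -0.61 for age without injury, Trib2 0.23 for age after injury, Cebpa -0.010, Spi1 0.065 and Klf4 0.22 for interaction. With the erythroid covariate the values were Cebpd -0.00080 for young injury, Cebpb 0.027, Cebpe 0.022 and Runx1 0.061 for aged injury, Cebpa 0.085, Cebpd 0.14, Cebpe 0.061 and Spi1 0.097 for age after injury, Klf4 0.11 for interaction. After quantile normalization the values were Cebpa -0.0066 and Runx1 -0.0048 for interaction. Without both libraries the values were Runx1 0.019 for young injury, Klf4 -0.039 for aged injury, Cebpa 0.00040 for age without injury, Cebpa -0.15 and Runx1 -0.031 for interaction. With 1 sample left out the ranges that crossed 0 were Cebpd -0.016 to 0.082, Spi1 -0.0068 to 0.16, Klf4 -0.011 to 0.086 and Runx1 -0.085 to 0.019 for young injury, Gfi1 -0.053 to 0.099, Irf8 -0.077 to 0.047, Klf4 -0.039 to 0.11 and Runx1 -0.078 to 0.018 for aged injury, Cebpa -0.074 to 0.091, Klf4 -0.080 to 0.068 and Runx1 -0.046 to 0.063 for interaction.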
